A study of Mus musculus with 2 samples.

Results

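The Serpinb and Spink genes encode protease inhibitors, and their transcripts were described here in mouse stomach at embryonic day 16.5. The members were all protein-coding genes whose GENCODE symbol is Serpinb or Spink followed by a number (and, for Serpinb, an optional letter). They are 38 of the 21474 protein-coding genes in the tables, 26 Serpinb and 12 Spink. Total RNA was sequenced from pools of stomachs of healthy B6NCrl embryos of mixed sex, in 2 biological replicates that form 1 group. The labels give 41 embryos for replicate 2 and no number for replicate 1. No condition was varied, so the values describe the tissue and the spread between the pools, and no gene was tested. With 2 libraries an exact two-sided sign-flip test cannot go below p = 0.5.

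Clade B serpins are mostly intracellular inhibitors that trap a serine or cysteine protease with a loop that the protease cleaves, after which the complex cannot come apart. Spink proteins are secreted and carry Kazal domains, small folds that block the active site of trypsin-like and kallikrein proteases. In stratified epithelia such as the mouse forestomach these inhibitors are known for restraining proteases of desquamation, in leukocytes for protecting the cell from its own granule proteases, and in pancreas for guarding against early trypsin activity.

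The members' values rest on 43195887 expected counts in replicate 1 and 25151165 in replicate 2. The libraries also differed in marker genes. The summed level of 8 skeletal muscle markers was 2079 TPM (a length-corrected transcript level) in replicate 1 and 173 TPM in replicate 2, and all 20 suprabasal squamous markers were lower in replicate 1. Ratios between the libraries are log2 of replicate 1 over replicate 2, scaled so that the median gene lies near 0. With spike-in scaling the median gene shifts by -0.58. In bulk RNA, fewer cells of a type and less RNA per cell cannot be told apart. Epithelial markers were counted beside the stomach label: 7 of 7 simple epithelium, 8 of 8 surface mucous and 8 of 8 basal squamous genes reached 1 TPM in both libraries. Markers of other organs did so too, 13 of 14 for pancreas acinar cells, 6 of 6 for liver and 8 of 8 for skeletal muscle. These counts alone therefore cannot verify the label.

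Few members were expressed. In all, 14 of 38 (36.8%) reached 1 TPM in both libraries, beside 64.3% of all protein-coding genes. They were 10 of 26 Serpinb genes and 4 of 12 Spink genes. A further 13 members had a count of 0 in both libraries, and 21 members, these included, had at most 3 counts in each, the number that a count of 0 allows. By genomic cluster, 6 of 11 Serpinb genes on chromosome 1 and 4 of 15 on chromosome 13 were detected. Among Spink genes, 2 of 9 on chromosome 18 and 2 of 3 elsewhere were detected. The 9 on chromosome 18 lie in 2 segments, 6 at 43728082 to 44196177 and 3 at 62548911 to 62741387, counted together here. Spink1 and Spink5, the detected ones, lie in the first segment.

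**Figure D1:**
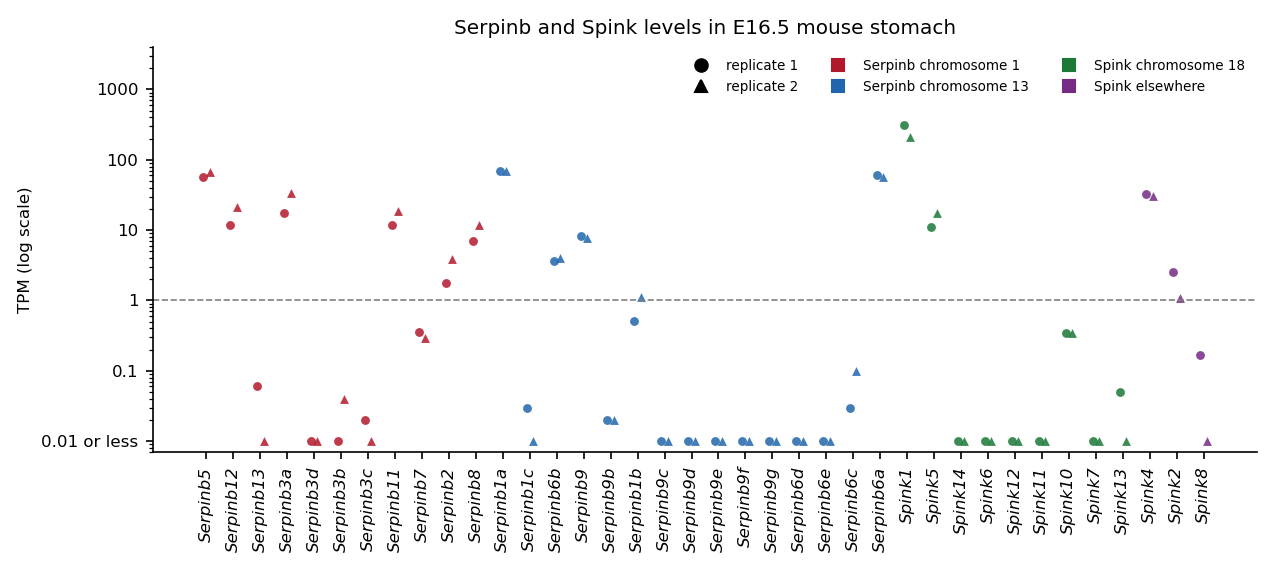
Level of every member in each library, in TPM on a log scale, with values of 0.01 TPM or less drawn at 0.01. Circles are replicate 1, triangles replicate 2, colours the genomic clusters, and the dashed line marks 1 TPM; the 14 detected members lie above it in both libraries, with Spink1 highest.

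The summed level of the Serpinb genes was 251 TPM in replicate 1 and 295 TPM in replicate 2, and that of the Spink genes 358 TPM and 263 TPM. Spink genes were thus ahead in replicate 1 and Serpinb genes in replicate 2, with a log2 ratio of Serpinb over Spink of -0.17 ± 0.48 (SD, n = 2), which does not exceed its spread. Spink1 alone held 86.9% of the Spink sum in replicate 1 and 81.3% in replicate 2. Without the highest member of each family the log2 ratio was 2.08. The Serpinb sum was spread over more genes, and its highest member, Serpinb1a, held 27.7% in replicate 1 and 23.6% in replicate 2.

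Between the Serpinb clusters the order also depended on the pool. The chromosome 1 genes summed to 107 TPM in replicate 1 and 156 TPM in replicate 2, and the chromosome 13 genes to 144 TPM and 139 TPM. The log2 ratio of chromosome 1 over chromosome 13 was -0.13 ± 0.42 (SD, n = 2), within the spread. The chromosome 13 sum varied little (141 ± 3.48 TPM, SD, n = 2), while the chromosome 1 sum was 132 ± 34.8 TPM.

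**Figure D2:**
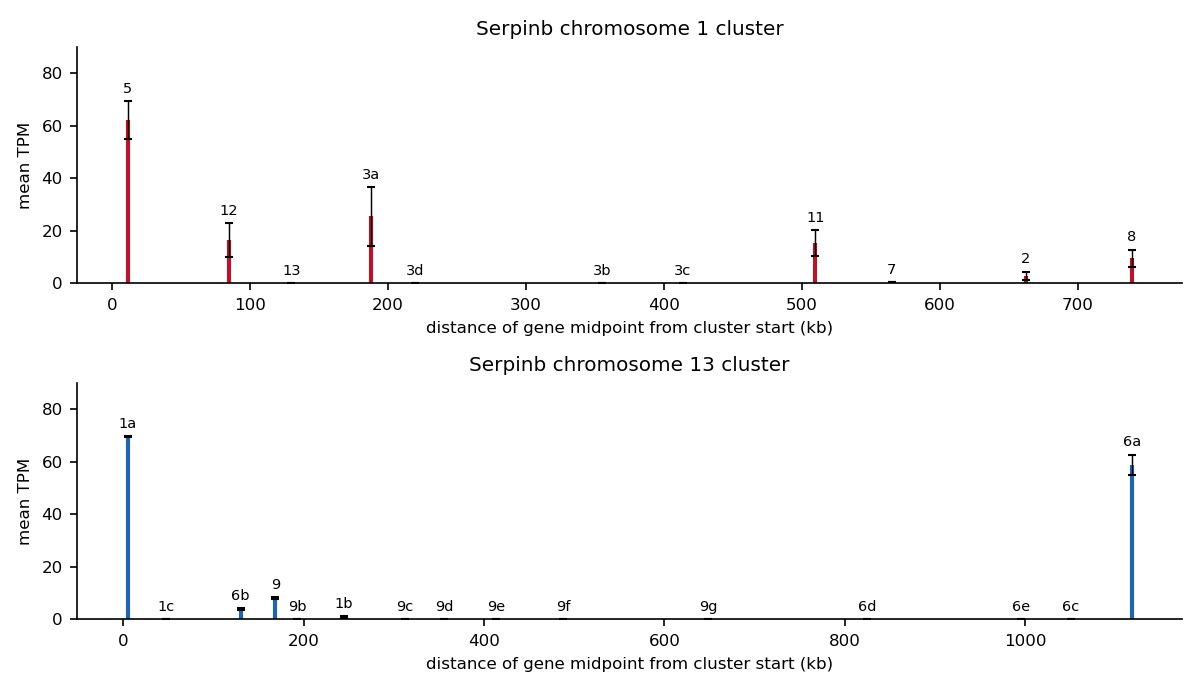
Mean TPM of each Serpinb gene against the distance of its midpoint from the start of its cluster in kb (number and letter of the gene above the line; error bars are the SD over 2 libraries). On chromosome 13 the high genes, Serpinb1a and Serpinb6a, lie at opposite ends. Between Serpinb9 and Serpinb6a, 9 of the 10 genes stand at 0.1 TPM or less in both libraries (the exception is Serpinb1b). On chromosome 1 detected genes lie on both sides of Serpinb3d, Serpinb3b and Serpinb3c, which stand at 0.04 TPM or less in both libraries.

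The chromosome 1 cluster spans 749 kb (106861173 to 107610484, GRCm38) and begins with Serpinb5 (ENSMUSG00000067006; 106861173 to 106883348), which encodes maspin, a serpin of epithelial cells that does not inhibit proteases in the usual way. Serpinb5 had 56.97 TPM in replicate 1 and 67.27 TPM in replicate 2 (62.1 ± 7.28, SD, n = 2), the highest level of the cluster. Its log2 ratio was -0.24, with a counting interval of -0.32 to -0.15.

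Serpinb3a (107045587 to 107052303) is a mouse relative of the human squamous cell carcinoma antigens, which inhibit cathepsins and serine proteases. Its level was 17.38 TPM in replicate 1 and 33.4 TPM in replicate 2, a log2 ratio of -0.90. The other Serpinb3 genes were at the floor. Serpinb3b and Serpinb3c, with at most 1 count each per library, stood at 0.04 TPM or less, and Serpinb3d at 0 counts in both, which allows up to 0.0875 TPM in replicate 1 and 0.156 TPM in replicate 2. Serpinb3a shares 93.0% of its coding sequence with Serpinb3b and is the nearest relative of Serpinb3d at 89.2%. The authors' posterior SD of the Serpinb3a count was 0.35 reads of 811 in replicate 1 and 0.37 of 870 in replicate 2.

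Serpinb12 (106934449 to 106957080), whose product inhibits trypsin-like proteases, stood at 11.77 TPM in replicate 1 and 20.99 TPM in replicate 2, a log2 ratio of -0.79. Serpinb11 (107361198 to 107380475), a serpin gene of epithelia, stood at 11.72 TPM and 18.76 TPM, a log2 ratio of -0.64. Serpinb8 (107590006 to 107610484), whose product inhibits furin in vitro, stood at 7.11 TPM and 11.76 TPM, a log2 ratio of -0.47 from counts and -0.72 on the scale of log2(TPM + 0.1). All 3 were thus lower in replicate 1. The deposited TPM intervals did not overlap between the libraries for Serpinb12 and Serpinb11 and did so for Serpinb8.

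Serpinb2 (107511423 to 107535478) encodes plasminogen activator inhibitor type 2, which blocks urokinase in macrophages and keratinocytes. It stood at 1.79 TPM in replicate 1, from 71.75 expected counts, and at 3.90 TPM in replicate 2, from 127 counts. Its log2 ratio of -1.59 was the lowest of all members. On the scale of log2(TPM + 0.1) it was -1.08. The tables also assign its reads to different transcripts in the libraries. Serpinb2-201 carried 65.4% of the gene's TPM in replicate 1 and 7.95% in replicate 2, while Serpinb2-202 carried 0% and 92.1%, and the nonsense-mediated decay transcript Serpinb2-204 34.6% and 0%. By the authors' posterior mean TPM the contrast was smaller, with 34.5% in replicate 1 and 22.9% in replicate 2 for Serpinb2-201 and 20.4% and 63.5% for Serpinb2-202. The gene overlaps Serpinb10 (107529003 to 107549271), a polymorphic pseudogene in the annotation and therefore no member. Serpinb10 stood at 2.13 TPM in replicate 1 and 3.05 TPM in replicate 2, with posterior SDs of 5.69 and 6.37 reads on 83.25 and 64 counts. For Serpinb2 the posterior SDs were smaller, 1.55 reads in replicate 1 and 0.98 reads in replicate 2. How the 2 genes share reads was not tested.

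Serpinb7 and Serpinb13 were the remaining genes of the cluster. Serpinb7, known as megsin, stood at 0.36 TPM in replicate 1 and 0.29 TPM in replicate 2, from 20 and 9 counts. Serpinb13, whose product inhibits cathepsins in human squamous epithelium, had 3 counts in replicate 1 and 0 in replicate 2. The protein-coding gene nearest to the start of the cluster, Vps4b, ends at 106796728 and had a log2 ratio of -0.06. The one nearest to the cluster's end (107610484), Cdh7, begins only at 109982431 and stood below 1 TPM in both libraries.

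Promoter sequences of the chromosome 1 genes that were lower in replicate 1 are shown with 1 chromosome 13 promoter beside them, since these genes differed together between the pools. They are from RefSeq on GRCm38.p6, 250 bases before to 50 after the start site, 5′ to 3′ on the gene's strand. RefSeq promoters were matched for 10 of 11 chromosome 1 and 14 of 15 chromosome 13 Serpinb genes. Capitals mark matches on either strand. The letters searched were TATAAA, a core promoter box. For AP-1 they were TGANTCA, where N is any base. This pattern reads alike on both strands, so that a match was counted once. The usual AP-1 site has C or G at N, so the search was wider than that site. For the GC box they were GGGCGG. For grainyhead-like factors they were AACCNGTT. For GATA factors they were AGATAA.
Serpinb5, chr1:106860925-106861224, strand +: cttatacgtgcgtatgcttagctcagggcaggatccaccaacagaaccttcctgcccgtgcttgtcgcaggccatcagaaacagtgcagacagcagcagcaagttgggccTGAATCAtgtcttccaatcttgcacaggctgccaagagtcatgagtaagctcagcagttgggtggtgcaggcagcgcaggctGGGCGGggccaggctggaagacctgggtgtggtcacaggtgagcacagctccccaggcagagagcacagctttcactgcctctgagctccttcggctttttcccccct
Serpinb12, chr1:106934199-106934498, strand +: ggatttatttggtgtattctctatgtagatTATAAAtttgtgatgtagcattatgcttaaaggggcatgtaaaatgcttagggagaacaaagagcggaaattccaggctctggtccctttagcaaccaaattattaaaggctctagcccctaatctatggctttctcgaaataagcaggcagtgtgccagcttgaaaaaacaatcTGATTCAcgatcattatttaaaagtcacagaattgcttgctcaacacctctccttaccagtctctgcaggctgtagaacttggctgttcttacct
Serpinb11, chr1:107362064-107362363, strand +: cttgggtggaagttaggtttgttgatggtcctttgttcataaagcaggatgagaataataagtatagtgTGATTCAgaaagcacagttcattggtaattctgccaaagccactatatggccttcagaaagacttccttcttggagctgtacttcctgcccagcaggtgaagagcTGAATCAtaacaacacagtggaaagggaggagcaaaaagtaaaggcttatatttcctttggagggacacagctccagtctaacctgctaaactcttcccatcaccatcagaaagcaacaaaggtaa
Serpinb2, chr1:107511173-107511472, strand +: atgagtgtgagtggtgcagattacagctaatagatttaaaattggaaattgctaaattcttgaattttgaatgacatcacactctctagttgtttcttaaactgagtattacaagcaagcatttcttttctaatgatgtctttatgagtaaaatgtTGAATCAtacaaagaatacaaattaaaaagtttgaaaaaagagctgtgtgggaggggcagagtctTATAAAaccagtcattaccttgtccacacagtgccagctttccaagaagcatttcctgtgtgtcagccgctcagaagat
Serpinb8, chr1:107589756-107590055, strand +: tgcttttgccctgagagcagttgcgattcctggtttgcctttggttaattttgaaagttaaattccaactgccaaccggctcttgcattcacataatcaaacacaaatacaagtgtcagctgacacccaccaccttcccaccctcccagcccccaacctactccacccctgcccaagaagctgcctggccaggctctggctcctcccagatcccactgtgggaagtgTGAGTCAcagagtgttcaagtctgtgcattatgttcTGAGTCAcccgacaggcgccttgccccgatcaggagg
Serpinb3a, chr1:107052254-107052553, strand -: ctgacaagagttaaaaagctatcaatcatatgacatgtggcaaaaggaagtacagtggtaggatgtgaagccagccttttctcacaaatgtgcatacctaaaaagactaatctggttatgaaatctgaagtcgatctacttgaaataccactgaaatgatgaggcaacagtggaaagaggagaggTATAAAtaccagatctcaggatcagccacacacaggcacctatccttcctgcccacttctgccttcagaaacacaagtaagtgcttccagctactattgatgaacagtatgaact
Serpinb6a, chr13:34002745-34003044, strand -: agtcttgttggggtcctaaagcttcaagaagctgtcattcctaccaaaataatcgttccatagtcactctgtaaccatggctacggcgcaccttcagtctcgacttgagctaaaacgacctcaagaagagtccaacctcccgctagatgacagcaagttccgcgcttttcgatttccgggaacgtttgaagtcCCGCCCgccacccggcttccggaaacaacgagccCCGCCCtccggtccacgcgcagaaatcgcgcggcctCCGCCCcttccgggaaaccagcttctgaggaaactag

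The AP-1 letters occurred in promoters of 6 of the 10 chromosome 1 genes and 0 of the 14 chromosome 13 genes, where 8.97% of all 27025 genes with a promoter in the table hold them. They were found in Serpinb5 (first base at -140, with the start site as 0), Serpinb12 (-45), Serpinb11 (-181 and -76), Serpinb2 (-94), Serpinb8 (-23 and 13) and the scarcely expressed Serpinb7 (-45). Serpinb3a, the second highest gene of the cluster, lacks them in this window. Only Serpinb8 and Serpinb7 held TGAGTCA, with G at N. In Serpinb5, Serpinb12, Serpinb11 and Serpinb2 the base at N was A or T. The share of all genes with C or G at N was not counted. TATAAA was found in 7 of 10 chromosome 1 genes and 2 of 14 chromosome 13 genes, beside 15.7% of all genes. The 4 Serpinb3 genes, whose coding sequences share 86.6% to 93.4%, are among the 7. By start site, its first base lay at -29 or -116 in Serpinb2 and at -220 or -201 in Serpinb12. It lay at -31 in Serpinb3c, -41 in Serpinb3b and -65 in Serpinb3a. On the opposite strand it lay at -40 in Serpinb3d and at -33 and -239 in Serpinb7. On chromosome 13 it lay at -48 in Serpinb1c and, on the opposite strand, at 3 in Serpinb6c. GGGCGG was found in 1 of 10 chromosome 1 genes and 4 of 14 chromosome 13 genes, beside 38.2%, and in the Serpinb6a promoter shown on 3 occasions. AGATAA was found in 2 of 10 and 1 of 14, beside 12.7%, and AACCNGTT in 0 of both, beside 2.35%. Genes with several promoters were counted if any of these held the letters. The other Serpinb6a promoter, from 33936034 to 33936333, holds no match of any kind. The Serpinb12 promoter from 106938707 to 106939006 holds TATAAA but not the AP-1 letters. A match of letters is a description of these windows only.

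The chromosome 13 cluster, 1161 kb long (32842092 to 34002794), was led by Serpinb1a and Serpinb6a. Serpinb1a (ENSMUSG00000044734; 32842092 to 32851185) encodes an inhibitor of neutrophil elastase, proteinase 3 and cathepsin G. It stood at 69.64 TPM in replicate 1 and 69.54 TPM in replicate 2, the highest Serpinb level, with a log2 ratio of 0.04. Serpinb6a (ENSMUSG00000060147; 33917918 to 34002794), a widely expressed inhibitor of cathepsin G and trypsin-like proteases, stood at 61.57 TPM and 56.22 TPM, a log2 ratio of 0.12. Serpinb1a, Serpinb5 and Serpinb6a had means of 69.6, 62.1 and 58.9 TPM. Serpinb1a was the highest of them in both libraries, while Serpinb5 was below Serpinb6a in replicate 1 and above it in replicate 2.

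Serpinb9 (33003250 to 33017957), the granzyme B inhibitor of cytotoxic lymphocytes, stood at 8.33 TPM in replicate 1 and 7.81 TPM in replicate 2. Serpinb6b (32965209 to 32979067) stood at 3.65 TPM and 4.04 TPM. Their log2 ratios were 0.13 and -0.07, and the counting interval of each included 0. Serpinb1b (33078575 to 33094380) was the only further gene of the cluster above 0.1 TPM in either library, at 0.51 TPM in replicate 1 and 1.13 TPM in replicate 2, from 25 and 31.01 counts. Its log2 ratio was -1.04.

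The remaining 10 chromosome 13 genes, which include Serpinb9b to Serpinb9g and Serpinb6c to Serpinb6e, had at most 3 counts in each library. Several genes below the 1 TPM threshold had a close relative that was detected. Serpinb1b and Serpinb1c share 90.6% and 89.4% with Serpinb1a, Serpinb9b 86.2% with Serpinb9, and Serpinb6c 87.4% with Serpinb6b and 86.6% with Serpinb6a. Serpinb9f and Serpinb9g, at 98.7% the closest pair of the 325 Serpinb pairs, both had 0 counts. The median identity of all pairs was 59.6%. The posterior SD was at most 5.77 reads for Serpinb6a, of 2503 counts in replicate 1, and at most 0.13 reads for Serpinb1a.

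Spink1 (ENSMUSG00000024503; chromosome 18, 43728082 to 43737557), the trypsin inhibitor of pancreatic juice that older mouse annotation calls Spink3, was the highest member. It stood at 311.28 TPM in replicate 1 and 213.75 TPM in replicate 2 (263 ± 69.0, SD, n = 2), at percentile 96.3 of detected genes. Its log2 ratio of 0.58, with a counting interval of 0.48 to 0.68, put it higher in replicate 1. The 14 pancreas acinar markers had a median log2 ratio of -0.14, 7 lower and 7 higher, and summed to 13680 TPM in replicate 1 and 15570 TPM in replicate 2. The trypsins it inhibits differed in both directions. Prss1 and Prss2 were lower in replicate 1, at 369 TPM against 446 TPM in replicate 2 (-0.24) and 159 TPM against 246 TPM (-0.59). Prss3, Try4 and Try5 were lower as well (-0.40, -0.96 and -0.52). Try10 was higher in replicate 1, at 261 TPM against 247 TPM in replicate 2 (0.11). All 6 liver markers were higher in replicate 1, with a median of 0.28. The part of either cell type in the Spink1 difference was not tested. With spike-in scaling the Spink1 log2 ratio was 0.00.

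Spink5 (chromosome 18, 43963235 to 44022501) encodes LEKTI, a chain of Kazal domains that restrains kallikreins in stratified epithelium. It stood at 10.89 TPM in replicate 1 and 17.51 TPM in replicate 2, a log2 ratio of -0.65, opposite in sign to Spink1. The protein-coding genes Scgb3a2 and Gm94 lie between Spink1 and Spink5. Scgb3a2 was below 1 TPM in both libraries. Gm94 stood at 3.21 TPM in replicate 1 and 7.09 TPM in replicate 2, a log2 ratio of -1.08. Spink10 had 11 and 6 counts, or 0.35 and 0.34 TPM, below the lower bounds of its deposited intervals (0.412 and 0.501 TPM), so its level is poorly fixed. Spink13 had 1 count in replicate 1 and 0 in replicate 2. Spink6, Spink7, Spink11, Spink12 and Spink14 had 0 counts in both libraries. For Spink7, a short gene, a count of 0 allows up to 0.615 TPM in replicate 1 and 1.10 TPM in replicate 2.

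Outside chromosome 18, Spink4 (chromosome 4, 40920052 to 40931395), a Kazal inhibitor of goblet cells, stood at 32.69 TPM in replicate 1 and 30.31 TPM in replicate 2, a log2 ratio of 0.14 with a counting interval of -0.14 to 0.43. The goblet cell mucin Muc2 stood at 2.63 TPM and 2.06 TPM, a log2 ratio of 0.07, but other goblet cell genes were lower in replicate 1, among them Spdef (-0.41), Fcgbp (-0.51), Agr2 (-0.43) and Tff3 (-0.25). Of the 11 goblet and intestinal genes past the filter, 7 were lower and 4 higher. Spink2 (chromosome 5, 77205107 to 77211471), known as the acrosin inhibitor of sperm, stood at 2.57 TPM and 1.10 TPM, from 42 and 10 counts. Its log2 ratio of 1.16 had a counting interval of 0.25 to 2.43. The acrosin gene Acr was near the floor, at 0.05 TPM and 0.04 TPM, and 0 of 6 germ cell and spermatid markers were detected. Spink8 (chromosome 9) had 3 counts in replicate 1 and 0 in replicate 2.

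**Figure D3:**
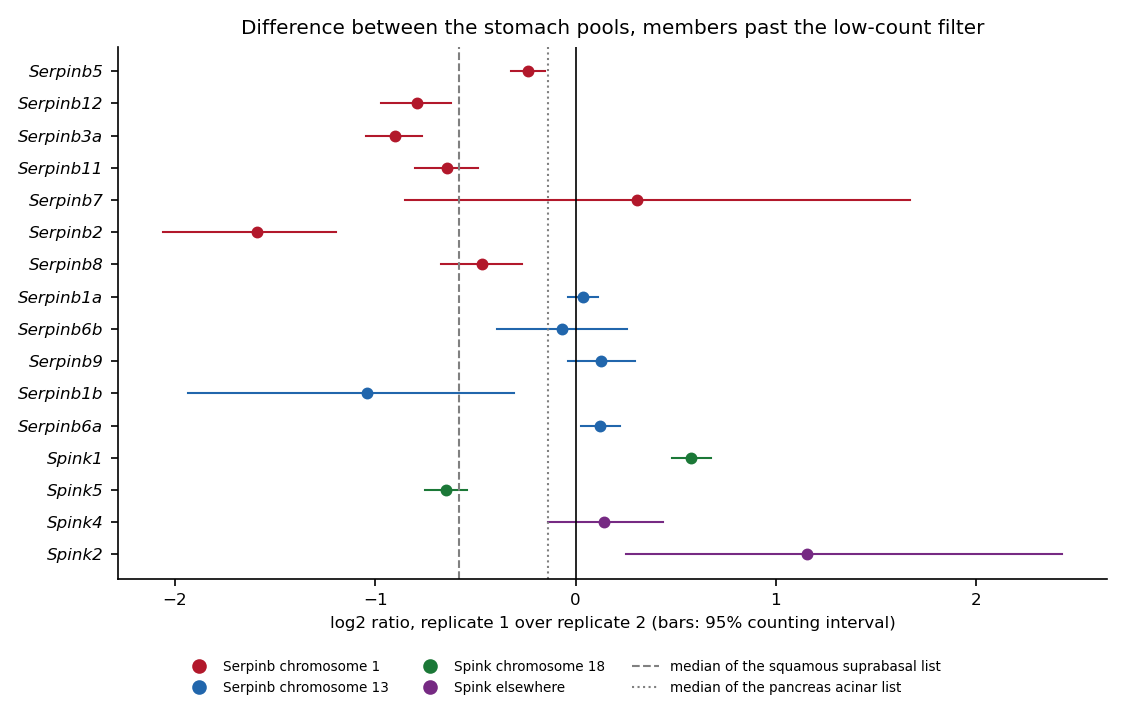
Log2 ratio of replicate 1 over replicate 2 (x axis, no unit) for the 16 members past the low-count filter, coloured by cluster, with 95% exact binomial counting intervals. Grey lines mark the median of the suprabasal squamous list (-0.58, dashed) and of the pancreas acinar list (-0.14, dotted). Left of 0 lie 6 of 7 chromosome 1 Serpinb genes, Spink5 and, on chromosome 13, Serpinb1b (-1.04) and Serpinb6b (-0.07).

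In all, 16 members passed the low-count filter and 22 did not. Of the 16, 9 were lower in replicate 1, with a median log2 ratio of -0.15, beside 49.6% of the 17763 genes past the filter (48.9% of the protein-coding ones) and a median of 0.00 over them. On chromosome 1, 6 of 7 Serpinb genes were lower in replicate 1 (median -0.64), and on chromosome 13, 2 of 5 (median 0.04). In either direction 3 of 16 were beyond 2-fold, beside 3.58% of all genes. Serpinb2 and Serpinb1b were more than 2-fold lower in replicate 1, beside 2.34% of all genes and 0.791% of protein-coding ones, and Spink2 was more than 2-fold higher, beside 1.24%. The deposited TPM intervals did not overlap for 7 members lower in replicate 1, beside 13.5% of all genes, and for 1 higher, Spink1, beside 7.32%. The members lower in replicate 1 by this measure were Serpinb5, Serpinb12, Serpinb3a, Serpinb11, Serpinb2, Serpinb1b and Spink5. Each side is 1 library, so these counts compare the pools only.

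Squamous markers, like most chromosome 1 genes and Spink5, were lower in replicate 1. Of 20 suprabasal markers all were lower in replicate 1, with a median log2 ratio of -0.58. Their summed level was 6437 TPM in replicate 1 and 10970 TPM in replicate 2. Of 8 basal markers 7 were lower, with a median of -0.37 and sums of 1705 TPM and 2152 TPM, led by the keratins Krt15 (-0.24) and Krt5 (-0.37). The highest suprabasal genes, the keratins Krt4 and Krt13, had log2 ratios of -0.83 and -0.64, and Trp63, the regulator of stratified epithelium, -0.38. Sprr3, Crct1 and Dsg1a were more than 2-fold lower in replicate 1 (-1.24, -1.07 and -1.34). The surface mucous list, of another stomach epithelium, was lower as well (8 of 8, median -0.53), as were simple epithelium markers (7 of 7, -0.32). Medians were -0.13 for goblet and intestinal genes, 0.20 for leukocyte and mast cell genes, 0.28 for megakaryocyte genes, -0.02 for mesenchyme and -0.07 for endothelium. The part of any cell type in the Serpinb and Spink5 differences was not tested.

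Proteases of families that these inhibitors are known to act on were present at different levels. Of 12 kallikreins, a family that includes targets of Spink5, 6 reached 1 TPM in both libraries. All 6 were lower in replicate 1, with a median log2 ratio of -1.10. Klk10 stood at 34.84 TPM in replicate 1 and 110 TPM in replicate 2, Klk13 at 14.02 TPM and 35.68 TPM, and Klk12 at 5.94 TPM and 13.71 TPM, each more than 2-fold lower in replicate 1. Klk5 and Klk7, the kallikreins through which LEKTI acts in skin, were at 0.6 TPM or less. Of 13 membrane serine proteases 13 were detected and 13 lower in replicate 1 (median -0.34), led by St14, the matriptase gene, at 62.03 TPM and 79.2 TPM, and Prss8 at 51.69 TPM and 65.93 TPM. Cysteine cathepsins, only some of which are known targets of the Serpinb3 family, were all detected (9 of 9, median -0.08). Among them, Ctsb stood at 189 TPM and 207 TPM and Ctsl at 172 TPM and 167 TPM.

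Granule proteases that Serpinb1a inhibits stood below it. Of 19 granzymes and neutrophil or mast cell proteases 8 were detected, and 10 of the 11 past the filter were higher in replicate 1 (median 0.49). The neutrophil elastase gene Elane stood at 8.33 TPM in replicate 1 and 5.68 TPM in replicate 2, Prtn3 at 5.83 TPM and 3.42 TPM, and Ctsg at 1.37 TPM and 0.77 TPM, while their inhibitor Serpinb1a stood near 70 TPM in both. Gzmb, the target of Serpinb9, stood at 1.58 TPM and 1.37 TPM. Mast cell proteases led the list, Cma1 at 26.97 TPM and 15.9 TPM and Tpsb2 at 15.43 TPM and 11.21 TPM. Plasminogen, its activators and the urokinase receptor were all detected (4 of 4, median -0.03). Plat led at 19.45 TPM and 19.69 TPM, followed by Plg, the plasminogen gene, at 11.33 TPM and 10.79 TPM. Plau, the urokinase gene, stood at 1.52 TPM and 2.31 TPM. Of 13 trypsin, chymotrypsin and elastase genes 11 were detected, with 9 lower in replicate 1 (median -0.52), led by Ctrb1 at 3012 TPM and 2818 TPM and Cela2a at 612 TPM and 1062 TPM. All 9 caspases were detected, led by Casp6 at 85.21 TPM and 88.27 TPM, with a median log2 ratio of -0.01.

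**Figure D4:**
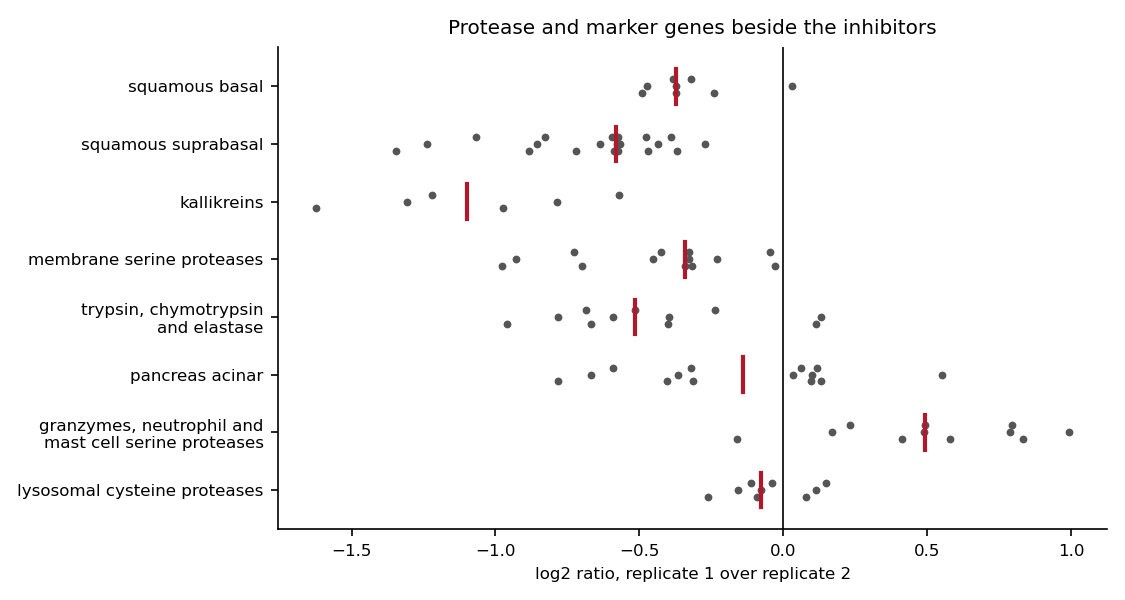
Log2 ratio of replicate 1 over replicate 2 (x axis, no unit) for genes past the low-count filter in 8 lists; each dot is a gene, moved up or down only for clarity, and the red bar is the list median. Kallikreins have the lowest median (-1.10) and the granule proteases the highest (0.49) of those drawn.

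Other inhibitor families are given beside the members. Of 20 serpins of other clades 16 reached 1 TPM in both libraries, and 14 of the 16 past the filter were higher in replicate 1 (median 0.19). Serpinh1, the collagen chaperone HSP47, was highest at 1003 TPM in replicate 1 and 1073 TPM in replicate 2, followed by Serpina6, which encodes the plasma carrier of glucocorticoids, at 140 TPM and 120 TPM. Of 22 Kunitz, WAP and cystatin inhibitors 17 were detected, with Cst3 at 380 TPM and 419 TPM, Cstb at 331 TPM and 366 TPM and a median log2 ratio of -0.11. Of 21 squamous and epithelial transcription factors 20 were detected, with 16 of 21 lower in replicate 1 (median -0.29), led by Elf3 at 130 TPM and 177 TPM.

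Transcripts were compared for the 12 detected members with several in the tables, and 11 had the same leading transcript in both libraries. The exception was Serpinb2, described above. Serpinb5 divided its TPM between Serpinb5-201, with 53.0% ± 1.06 (SD, n = 2), and the short Serpinb5-204, of 654 bases, with 42.9% ± 1.56. Serpinb6a divided its TPM between Serpinb6a-202, with 41.8% ± 2.47, and Serpinb6a-203, with 38.4% ± 0.354, among 17 transcripts. Serpinb3a-201 led Serpinb3a but varied, with 88.9% in replicate 1 and 65.1% in replicate 2, its companion Serpinb3a-202 being 9 bases shorter. Serpinb8 had no dominant form, and its leader Serpinb8-201 carried 38.2% ± 2.97. The protein-coding Serpinb8-203, of 373 bases, carried 26.2% ± 6.79 and the retained-intron transcript Serpinb8-204 carried 24.2% ± 3.61. Serpinb1a-201, Serpinb9-201, Serpinb11-201, Spink4-201 and Spink2-201 each carried 100% in both libraries. By posterior mean TPM, Spink2-201 carried 87.5% in replicate 1 and 66.9% in replicate 2, and Serpinb9-201 90.7% and 88.9%. Serpinb1a-201, Serpinb11-201 and Spink4-201 stayed at 97.9% or more. These shares are estimates, since transcripts of 1 gene overlap.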

How the data were processed

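Total RNA over 200 nt was sequenced from 2 pools of E16.5 stomachs, with 10 ng per library, per the labels. The build is mm10 with annotation M4, as the deposited notes state. Which aligner and quantifier made them is not given in the sources used here. Expected counts, as deposited, estimate reads for each gene, with shared reads split. TPM, posterior mean TPM and FPKM values were deposited by the authors. The posterior SD of the count and the bounds of the TPM intervals were also deposited by the authors and are treated as scores, their level not being stated.

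Gene names and positions are from GENCODE M21 on the same assembly, which matched 42462 of 43346 Ensembl genes; the rule for members was applied to both gene tables. Numeric features and phiX, with 0.00017% and 0.00011% of expected counts, and spike-ins, with 3.08% and 2.05%, stayed out of library sizes. A gene was called detected at 1 TPM or more in both libraries. Expected counts were rounded, filtered with filterByExpr as 1 group with TMM scaling, and log2 ratios took a prior count of 2 (edgeR 4.0.16, R 4.3.3); DESeq2 1.42.0 gave an alternative. Counting intervals are 95% exact binomial and, like the floor of 3 counts, cover counting error only. The chi-square per degree of freedom between the libraries was 24.2, so they are not 1 library listed again. The ratio step was tested on simulated data. Coding identity came from global alignments of the longest M21 coding sequences (Biopython 1.88), as a share of the shorter sequence. The planned comparison of protein sequences was replaced by this one, for Serpinb only, as a protein table was not used here.

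Every member is accounted for, and those detected are described singly. Of the other lists, the rule named the 2 highest and those beyond 2-fold, which is followed for the protease, inhibitor and squamous lists; other marker lists are given by counts and medians. The second highest gene of 2 of these lists is not reported here. Acr, Klk5, Klk7, Elane, Prtn3, Ctsg, Gzmb and Plau were added as targets or markers after values were seen. So were Muc2, Spdef, Fcgbp, Agr2, Tff3, Trp63 and the trypsin genes. Members and lists were chosen with earlier results of these data known.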

Additional observations from a re-analysis of the deposited data

How the results depend on the processing

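The count of 14 detected members was 11 to 15 under the alternatives run. For the summed levels, expected counts not corrected for length moved the log2 ratio of Serpinb over Spink from -0.17 to 1.502. The same counts moved that of the chromosome 18 Spink genes over other Spink from 3.03 to 3.87. Leaving out the highest member of each family gave 2.08 for Serpinb over Spink. Taking 1 library at a time gave -0.51 to 0.17 for Serpinb over Spink, -0.42 to 0.17 for chromosome 1 over chromosome 13 and 2.88 to 3.19 for Spink chromosome 18 over other Spink. Spike-in scaling, which shifts the median gene by -0.58, gave median log2 ratios of -0.73 for all members, -0.93 for Serpinb, -1.22 for Serpinb on chromosome 1, -0.54 on chromosome 13, -0.61 for Spink on chromosome 18 and 0.10 for Spink elsewhere, and turned that of Spink to -0.21 and the log2 ratios of Serpinb6a to -0.45, Serpinb1a to -0.54, Serpinb9 to -0.45, Spink4 to -0.43 and Serpinb7 to -0.20, all 5 above 0 without it. Without the low-count filter, which adds genes at 0, the medians were 0.00 for all members and for Serpinb, 0.031 for Spink, -0.46 for chromosome 1 and 1.13 for Spink elsewhere. Members beyond 2-fold numbered 3, against 7 with spike-in scaling, 5 without the filter and 0 with log2(TPM + 1). Of the 126 values of single members under an alternative, 110 stayed within the counting interval and 13 of the others came from spike-in scaling. The members with the same leading transcript numbered 10 with posterior mean TPM. The cause of these shifts was not tested. No paired analysis was possible because there is 1 group. Serpinb1b, Spink2 and Serpinb7 rest on 9 to 42 counts a library.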
